A study of Mus musculus with 6 samples.

Results

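The 9 genes described here encode transcription factors of the skeletal muscle program: the myogenic regulatory factors Myf5, Myod1, Myog and Myf6, the MEF2 factors Mef2a, Mef2c and Mef2d, and the associated factors Hes6 and Six4. They were chosen by gene symbol, and all 9 were found among the 56792 gene rows of the count table and passed the filter on low counts, which left 14989 rows. The libraries come from C2C12, an established mouse myoblast line of wild-type genotype whose cells fuse into myotubes in low serum. The cells of 3 libraries were kept in medium with 2% horse serum, to differentiate, and 1 µM lenvatinib up to day 4, and those of the other 3 in this medium without the drug up to day 4. Lenvatinib is an anticancer drug that inhibits receptor tyrosine kinases, among them the receptors for vascular endothelial, fibroblast and platelet-derived growth factors. The labels do not say whether replicates were separate cultures, when the drug was added or whether a solvent control was used, so p-values describe the spread among these 6 libraries alone, and part of it may be technical.

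As background, the myogenic regulatory factors are basic helix-loop-helix (bHLH) proteins that bind the short DNA element called the E-box together with an E protein. Myf5 and Myod1 act in commitment to the muscle lineage, Myog in terminal differentiation, and Myf6 mainly later, in maturing fibers. MEF2 proteins belong to the MADS-box family, bind an A/T-rich element and act together with the myogenic bHLH factors at many muscle promoters. Hes6 is a bHLH protein of the Hes family that counteracts the repressor Hes1, and Six4 is a homeodomain factor that binds the MEF3 site and works with Eya cofactors.

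Promoter sequence is shown for 3 members, in windows picked because they hold the letters that the factors themselves are known to recognise: Myog and Hes6, which rose, and Mef2c, which fell. The matches shown are therefore not typical of all windows of the members, and a Six4 window that also holds such letters is not printed. Each window is the 250 bases before an annotated gene start, from RefSeq on GRCm38.p6, written 5′ to 3′ on the gene's strand. Capitals mark E-boxes (CANNTG), the relaxed MEF2 element and the MEF3 site (TCAGGTT), searched on both strands. The relaxed element is the MEF2 consensus of 10 letters with its last base free, a form chosen after the full consensus had matched no window. The windows are chr1:134289754-134290003 on the plus strand for Myog, chr1:91414039-91414288 and chr1:91413223-91413472 on the minus strand for the 2 starts of Hes6, and chr13:83503784-83504033 on the plus strand for the most upstream of 3 starts of Mef2c.
Myog: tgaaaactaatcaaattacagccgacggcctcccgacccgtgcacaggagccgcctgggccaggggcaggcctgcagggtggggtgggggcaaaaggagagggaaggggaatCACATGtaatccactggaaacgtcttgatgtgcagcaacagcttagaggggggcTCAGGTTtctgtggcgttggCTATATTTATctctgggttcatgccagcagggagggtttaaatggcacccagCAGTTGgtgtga
Hes6 first start: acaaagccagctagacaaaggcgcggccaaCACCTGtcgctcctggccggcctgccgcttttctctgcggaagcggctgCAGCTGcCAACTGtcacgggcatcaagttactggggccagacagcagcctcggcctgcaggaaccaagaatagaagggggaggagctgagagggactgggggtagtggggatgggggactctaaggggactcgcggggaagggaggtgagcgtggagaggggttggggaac
Hes6 second start: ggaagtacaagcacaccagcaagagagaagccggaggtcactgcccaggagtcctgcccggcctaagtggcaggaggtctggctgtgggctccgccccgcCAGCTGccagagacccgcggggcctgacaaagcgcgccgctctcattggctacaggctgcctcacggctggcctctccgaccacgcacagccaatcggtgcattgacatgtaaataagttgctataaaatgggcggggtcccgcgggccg
Mef2c: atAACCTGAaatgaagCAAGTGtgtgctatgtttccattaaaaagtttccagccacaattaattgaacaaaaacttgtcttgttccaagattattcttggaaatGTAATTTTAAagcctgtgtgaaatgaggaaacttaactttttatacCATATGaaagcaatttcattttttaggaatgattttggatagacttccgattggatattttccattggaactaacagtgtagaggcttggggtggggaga

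The Myog window held E-boxes that begin 138 and 12 bases before the start, the MEF3 site at 84 bases and, at 64 bases, the relaxed MEF2 element as CTATATTTAT, which is the MEF2 site known from this promoter. Of 32851 windows of the same length 7.03% held the relaxed element, 3.49% TCAGGTT and 66.2% CANNTG. The full MEF2 consensus, present in 2.92% of all windows, matched none of the 11 windows found for 7 of the 9 members, and the CArG box, present in 1.47%, also matched none. The first Hes6 window held 3 E-boxes, of which the one at 171 bases reads CAGCTG, and the second held a single CAGCTG at 150 bases; 13% of all windows hold that form. TATAAA, found in 12.4% of all windows, began 28 bases before the second Hes6 start. The printed Mef2c window held E-boxes at 234 and 100 bases. On its opposite strand it held the relaxed MEF2 element at 146 bases, the MEF3 letters at 248 bases and TATAAA at 107 bases. Of the Mef2c windows not printed, that of the second start held no E-box, MEF2 or MEF3 match, only TATAAA on the opposite strand at 22 bases. That of the third start held a single E-box at 245 bases. The first of 2 Six4 windows held the MEF3 letters on the opposite strand at 97 bases. In the windows of Myf5, Mef2a and Mef2d none of these letters occurred. GENCODE M21 places 15 of the 250 bases of the Myog window in an exon of Myog and no base of the other 3 printed windows in an exon. These matches describe letters and not binding.

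With lenvatinib, transcripts of Myf5, Myog, Hes6, Myod1 and Mef2a rose, those of Mef2c, Six4 and Mef2d fell, and Myf6 did not pass the test. Thus 5 of 9 members were called higher and 3 lower, where 28.2% of all tested rows were called, 13.3% higher and 14.9% lower. Among the 9473 rows with a mean of at least 10 CPM (counts divided by the library total, scaled by TMM factors), a range that holds all members but Myf6, 33.9% were called. The sizes were modest: Myf5 changed most, 1.48-fold higher, Mef2c was 1.35-fold lower, and Mef2a, the least changed of the called members, was 1.09-fold higher. The 8 called members each had lenvatinib libraries that lay wholly above or wholly below the untreated ones, 5 above and 3 below; of all tested rows 40.1% were apart in this way, 19.6% higher and 20.5% lower. The median log2 fold change of the 9 members was 0.16, against 0.003 over all tested rows. That median is the estimate of Myf6 itself, the member that did not pass (0.16 ± 0.29), so it does not describe a shared rise. A call is an adjusted p under 0.05 in the quasi-likelihood test of edgeR, adjusted by the Benjamini-Hochberg method over all tested rows. Log2 fold changes put lenvatinib over untreated and are given ± SE. In bulk RNA, fewer cells of a type and less RNA per cell cannot be told apart.

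**Figure D1:**
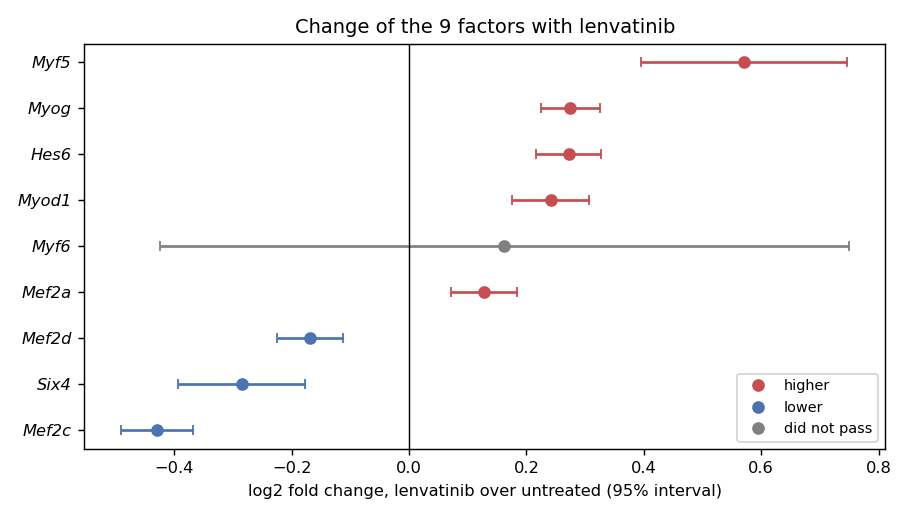
Log2 fold change of the 9 factors, lenvatinib over untreated, with 95% intervals of the edgeR fit (3 libraries per group). The intervals of the 8 called genes lie on one side of 0, from Myf5 at 0.57 to Mef2c at -0.43, and that of Myf6 spans -0.42 to 0.75.

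Myog was the most abundant member per kilobase. The gene lies on chromosome 1 from 134217727 to 134220286 on the plus strand in the deposited table, whose positions are given without a build. For most genes these positions differ from GENCODE M21. Here and for the members below, they cannot be set against the GRCm38.p6 positions of the promoter windows. The Myog level was 1052, 1026 and 1029 CPM with lenvatinib, against 862, 862 and 844 CPM in untreated libraries. The coefficient of variation between the lenvatinib libraries was 1.36%, and all 3 stood above the untreated ones. The rise was 1.21-fold (0.27 ± 0.02, edgeR adjusted p = 6.51e-12), with a 95% interval of 0.22 to 0.33.

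Hes6, on the same chromosome (91339205 to 91341760, minus strand), followed Myog closely. It had 305, 296 and 299 CPM with lenvatinib, against 251, 248 and 245 CPM without it, and the groups did not overlap. The log2 fold change was 0.27 ± 0.03 (edgeR adjusted p = 1.13e-10). Set directly against Myog within each library, Hes6 had 0.29, 0.288 and 0.291 counts per Myog count with lenvatinib and 0.291, 0.288 and 0.291 in untreated libraries. The ratio overlapped between the groups and differed by -0.003 on the log2 scale (two-sided exact permutation test, p = 0.6; adjusted over 8 ratios, 0.6).

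Myod1 rose by a similar amount. Its row, on chromosome 7 from 46025898 to 46028523, held 144, 140.3 and 142 CPM with lenvatinib and 118, 125 and 118 CPM without it. The lowest lenvatinib library was above the highest untreated one, and the change was 1.18-fold (0.24 ± 0.03, edgeR adjusted p = 9.86e-08). The feature length of this row, 3414 bases, exceeds the 2626 bases of the gene, so it may also hold reads from outside Myod1. Per Myod1 count there were 7.31, 7.31 and 7.26 Myog counts with lenvatinib, against 7.32, 6.9 and 7.16 in untreated libraries, and these ranges overlapped (exact permutation p = 0.4; adjusted over 8 ratios, 0.457).

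Myf5, which marks commitment and the undifferentiated cells left in a culture, had the largest fold change of the 9. It lies on chromosome 10 (107318769 to 107321995, minus strand). Its counts were 329, 383 and 476 with lenvatinib, or 13.3, 15.7 and 14.7 CPM, against 261, 273 and 258 counts, or 9.82, 10.7 and 8.97 CPM, in untreated libraries. All 3 lenvatinib libraries were above all untreated ones, by a mean of 0.57 ± 0.09 on the log2 scale (edgeR adjusted p = 1.31e-06), although replicates varied more than for Myog, by 8.22% with lenvatinib and 8.8% without it. Set against Myod1 within each library, there were 0.0924, 0.112 and 0.104 Myf5 counts per Myod1 count with lenvatinib, against 0.0833, 0.0857 and 0.0761 in untreated libraries. These ratios did not overlap (exact permutation p = 0.1, the smallest that 3 against 3 libraries allow; adjusted over 8 ratios, 0.133).

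Myf6, the neighbour of Myf5 on chromosome 10 (107328714 to 107330598), had few counts. It had 21, 25 and 31 counts with lenvatinib, against 21, 27 and 20 counts in untreated libraries, which is 0.943 ± 0.0881 CPM with lenvatinib and 0.848 ± 0.188 CPM without it (SD, n = 3 each). The groups overlapped, and the difference did not pass (0.16 ± 0.29, edgeR adjusted p = 0.734). The 95% interval of its log2 fold change, -0.42 to 0.75, includes both no change and a rise as large as that of Myf5. Neither can be excluded at this depth.

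**Figure D2:**
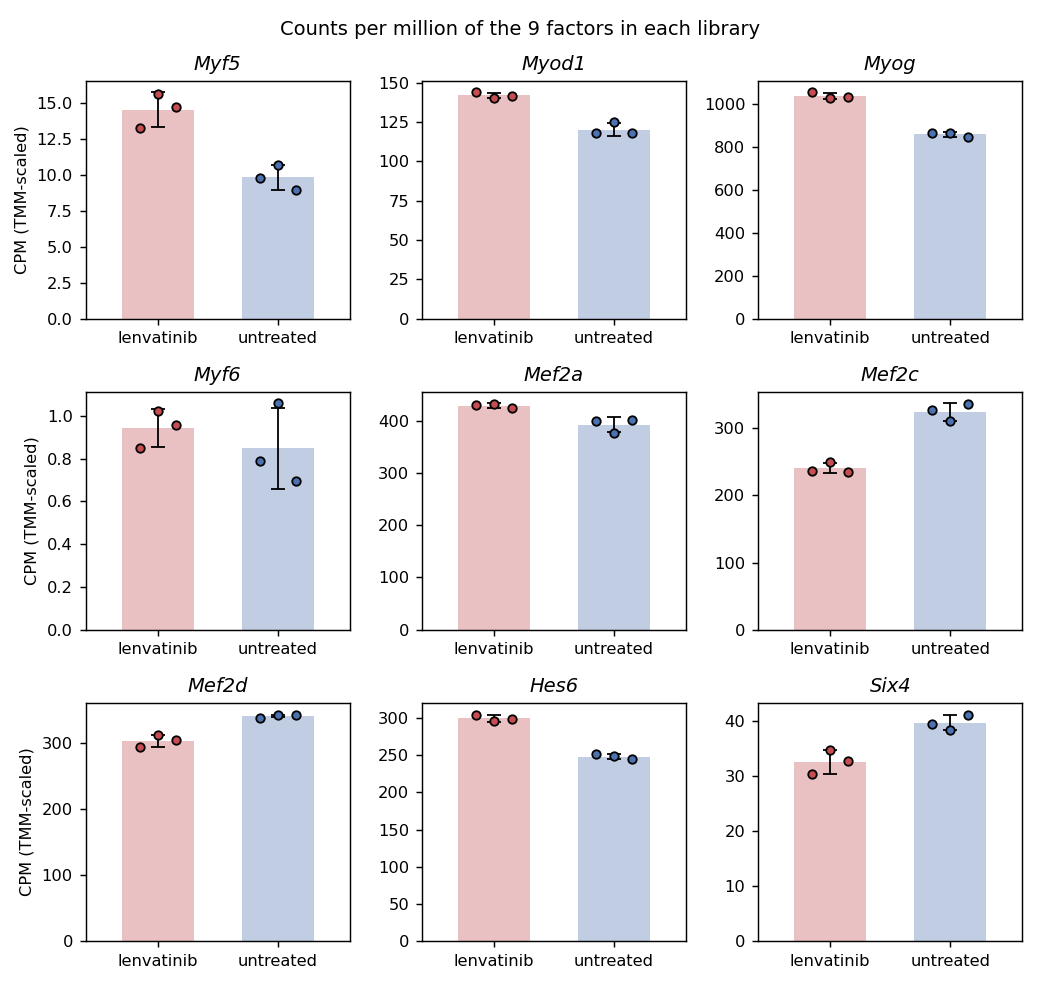
CPM of each factor in the 6 libraries; points are libraries, bars are means and whiskers are the SD (n = 3 per group), and each panel starts at 0. Points of the groups overlap for Myf6 only, and Myog reaches 1052 CPM with lenvatinib against at most 862 CPM in untreated libraries.

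The MEF2 genes did not move together. Mef2c, a MEF2 gene that rises during myoblast differentiation, fell most, on chromosome 13 from 83652153 to 83815199. It had 237, 249.5 and 235 CPM with lenvatinib, against 326, 310.2 and 335 CPM in untreated libraries. No lenvatinib library reached the lowest untreated one, and the change was -0.43 ± 0.03 (edgeR adjusted p = 1.28e-14).

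Mef2d, a MEF2 gene active in muscle and many other tissues, fell as well. On chromosome 3 (88049679 to 88079393) its row held 293, 311 and 305 CPM with lenvatinib and 338, 342 and 342 CPM without it. The groups did not overlap, and the change was -0.17 ± 0.03 (edgeR adjusted p = 5.6e-06).

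Mef2a, on chromosome 7 from 66880911 to 67022606, went the other way. It had 429, 432 and 424 CPM with lenvatinib, against 399.6, 376 and 401 CPM in untreated libraries, and rose by 0.13 ± 0.03 (edgeR adjusted p = 0.000393). Its gene overlaps Lysmd4 on the opposite strand, which had 342 to 491 counts per library where Mef2a had at least 9606. Whether counting used the strand is unknown here, so reads in that overlap cannot be assigned. Mef2b, the remaining gene of the family, was low, at 5.37 ± 0.271 CPM with lenvatinib and 5.25 ± 0.349 CPM in untreated libraries (SD, n = 3 each), and did not pass (edgeR adjusted p = 0.872); it overlaps Borcs8 on the same strand, so its counts are uncertain.

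Within each library, where library scaling plays no part, the MEF2 genes were also set against each other. Per Mef2a count there were 0.552, 0.577 and 0.555 Mef2c counts with lenvatinib, against 0.817, 0.824 and 0.837 in untreated libraries. Per Mef2d count there were 0.808, 0.802 and 0.773 Mef2c counts with lenvatinib, against 0.966, 0.908 and 0.981 without it. Neither ratio overlapped between the groups, and the mean log2 ratio with lenvatinib minus that without it was -0.56 against Mef2a and -0.26 against Mef2d. For each the exact permutation p was 0.1, the smallest possible here (0.133 adjusted over the 8 ratios).

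Expressed as shares of the counts per kilobase of feature length, Mef2c made up 17.8 ± 0.283% of the MEF2 total with lenvatinib and 21.9 ± 0.489% in untreated libraries (SD, n = 3 each). Mef2a held 32.1 ± 0.572% with lenvatinib and 26.8 ± 0.531% without it, and Mef2d 50.1 ± 0.63% with lenvatinib and 51.3 ± 0.976% without it. For each of the 3 genes the exact permutation p was 0.1, the smallest possible. The make-up of the myogenic regulatory factors differed little: Myog held 93.6 ± 0.0711% with lenvatinib and 93.6 ± 0.208% in untreated libraries, a difference of 0.0245 percentage points (exact permutation p = 0.9). Its sign turned without the first lenvatinib library (-0.0164 points) or the second untreated one (-0.0933 points). Myf5 held 0.632 ± 0.0594% of that total with lenvatinib and 0.516 ± 0.0395% without it (exact permutation p = 0.1). The level of the Myog share depended on the lengths used. With exonic lengths from GENCODE M21 it was 89.2% with lenvatinib and 89.1% in untreated libraries. In counts not divided by length it was 86.8% with lenvatinib and 86.7% in untreated libraries.

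**Figure D3:**
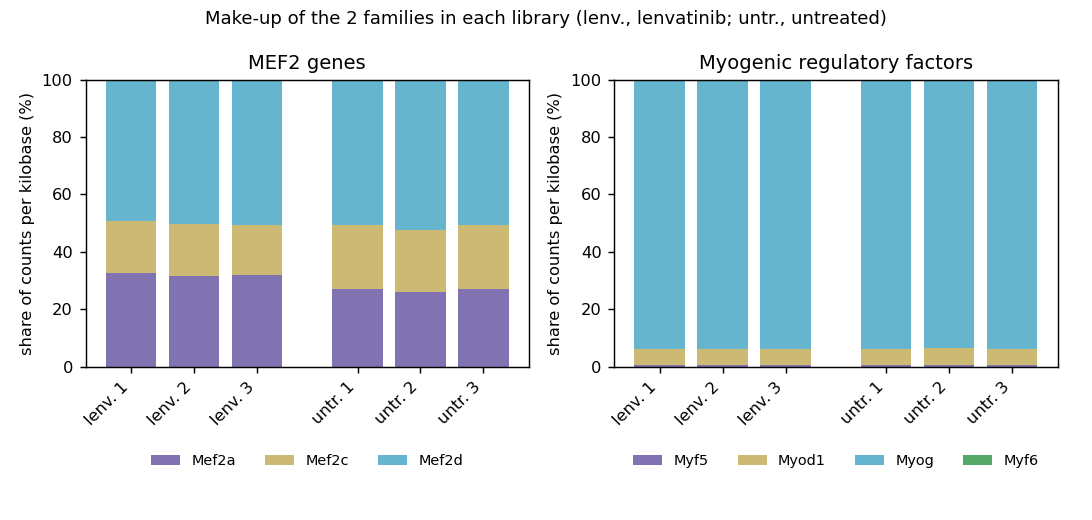
Share of each gene in its family's counts per kilobase of deposited feature length, in percent, in each of the 6 libraries (left, MEF2 genes, and right, myogenic regulatory factors). The Mef2c share is 17.5 to 18.1% in lenvatinib libraries and 21.4 to 22.3% in untreated ones, while Myog holds over 93% in all 6.

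Six4 fell. On chromosome 12 (73146383 to 73160230, minus strand) it had 30.3, 34.7 and 32.8 CPM with lenvatinib, against 39.5, 38.4 and 41.2 CPM in untreated libraries. The groups did not overlap, and the change was -0.28 ± 0.05 (edgeR adjusted p = 4.62e-05).

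On the scale of CPM per kilobase of deposited feature length, the order of levels with lenvatinib was Myog (693 ± 9.43), Hes6 (166 ± 2.56), Mef2d (42.9 ± 1.31), Myod1 (41.6 ± 0.527), Mef2a (27.5 ± 0.262), Mef2c (15.3 ± 0.496), Myf5 (4.67 ± 0.384), Six4 (2.98 ± 0.2) and Myf6 (0.711 ± 0.0665). In untreated libraries it was Myog (573 ± 6.82), Hes6 (137 ± 1.57), Mef2d (48.3 ± 0.304), Myod1 (35.2 ± 1.18), Mef2a (25.2 ± 0.877), Mef2c (20.6 ± 0.808), Six4 (3.63 ± 0.128), Myf5 (3.16 ± 0.278) and Myf6 (0.639 ± 0.142) (SD, n = 3 each). Myog exceeded Hes6, next in order, 4.18-fold with lenvatinib and 4.17-fold without it. Mef2d and Myod1 overlapped in range with lenvatinib; all other neighbours were apart in both groups. The order of Six4 and Myf5 differs between the groups on this scale, but with exonic lengths from GENCODE M21 (2083 in place of 3115 bases for Myf5, 1861 in place of 3414 for Myod1) Myf5 stood above Six4 and Myod1 above Mef2d in both groups.

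By the root mean square distance between log2 CPM profiles over the 6 libraries, among 4344 genes of at least 50 CPM, the genes most like Myog were Atf4 (0.009), a transcription factor of the integrated stress response, Msrb3 (0.014), Sspn (0.014), the collagen receptor Ddr1 (0.016) and the superoxide dismutase gene Sod1 (0.019). Atf4 was at 405 ± 3.89 CPM with lenvatinib and 338 ± 3.82 CPM in untreated libraries (SD, n = 3 each). The genes most like Mef2c were Pdcd4 (0.022), Btg1 (0.025), Egln3 (0.033), the sodium pump subunit gene Atp1b1 (0.033) and Ugcg (0.035). Btg1, an antiproliferative factor, was at 90.6 ± 1.13 CPM with lenvatinib and 123 ± 3.82 CPM without it (SD, n = 3 each). Since the distance over 6 libraries mostly reflects the difference between the groups, it describes a similar size of change.

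Around the members, 8 lists of partners, inhibitors, cofactors and targets held 109 genes, of which 100 were tested, 32 called higher and 19 lower, or 51% called, against 28.2% of all tested rows and 33.9% of those of at least 10 CPM. These lists were chosen with earlier results known, and for the E proteins (1 of 3 called) and the class IIa histone deacetylases with MEF2 corepressors (2 of 7) the share called was near that of all rows. For the kinases, phosphatases and NFAT factors (8 of 21) and the coactivators and chromatin partners (6 of 14) it was intermediate. It lay between the share of rows of at least 10 CPM and that of the 8 lists together. Among the E proteins, which pair with the myogenic bHLH factors, 1 of 3 was called. Tcf4 fell to 162 ± 3.64 CPM with lenvatinib, against 198 ± 6.19 CPM in untreated libraries (edgeR adjusted p = 3.13e-10). Tcf12 was at 168 ± 3.48 CPM with lenvatinib and 174 ± 3.58 CPM without it, and Tcf3 at 91.8 ± 3.39 CPM with lenvatinib and 90.5 ± 7 CPM without it (SD, n = 3 each); neither passed (edgeR adjusted p = 0.18 and 0.773).

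Of 16 bHLH inhibitors and repressors 14 were tested; 5 rose, 4 fell and 5 did not pass, with a median log2 fold change of 0.02. Id proteins lack a basic region and hold E proteins in dimers that cannot bind DNA. Id3 rose to 39.9 ± 1.51 CPM with lenvatinib, against 22.5 ± 1.47 CPM without it (0.83 ± 0.06), and Id1, whose row is wider than its gene, to 37.2 ± 1.59 CPM with lenvatinib, against 26.3 ± 0.856 CPM without it (0.50 ± 0.05). Msc, a bHLH repressor of myogenic activity, rose to 2.02 ± 0.371 CPM with lenvatinib, against 0.616 ± 0.0594 CPM without it, on 14 to 76 counts per library. The Notch target Hey1 rose to 3.85 ± 0.633 CPM with lenvatinib, against 2.31 ± 0.31 CPM without it (SD, n = 3 each), on 58 to 142 counts per library. Heyl, of the same family, was at 14.7 ± 0.664 CPM with lenvatinib and 13.2 ± 0.519 CPM without it, and did not pass (edgeR adjusted p = 0.133). The 4 that fell, named after their values were seen, include Mdfi, an inhibitor of the myogenic factors, at 0.153 ± 0.0676 CPM with lenvatinib and 0.607 ± 0.0626 CPM without it (-1.90 ± 0.47, edgeR adjusted p = 0.00148), on 2 to 18 counts per library. Twist2 fell by 0.52, Bhlhe41 by 0.14 and Bhlhe40 by 0.10 on the log2 scale. Hes1, the repressor that Hes6 opposes, was at 51.5 ± 2.44 CPM with lenvatinib and 51.7 ± 1.49 CPM in untreated libraries and did not pass (edgeR adjusted p = 0.987).

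In the list of homeodomain factors, Eya cofactors and Pax factors 6 of 11 genes were tested, 1 rose, 2 fell and 3 did not pass (median 0.01). Eya4, of the family of cofactors that work with Six4, rose by 0.18. Pitx3 fell by 2.19 on the log2 scale at a low level, 0.344 ± 0.103 CPM with lenvatinib and 1.64 ± 0.477 CPM without it (SD, n = 3 each), and Eya3 fell by 0.14. Without single libraries (3 of the 6) the adjusted p of Eya3 went above 0.05. Pax7, a marker of satellite cells, was at 11.6 ± 0.407 CPM with lenvatinib and 10.9 ± 0.364 CPM without it and did not pass (edgeR adjusted p = 0.48).

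Class IIa histone deacetylases bind MEF2 proteins and repress their targets. Of the 7 genes of that list, with the MEF2 corepressors, none rose, 2 fell and 5 did not pass (median 0.06). Hdac4 fell to 28.8 ± 1.83 CPM with lenvatinib, against 37.3 ± 1.6 CPM in untreated libraries (-0.37 ± 0.06, edgeR adjusted p = 9.19e-07). Hdac5 fell by 0.13, but leaving out untreated library 2 raised its edgeR adjusted p to 0.0565.

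Known targets of the factors were described by their own lists. Of 18 tested target genes of the myogenic regulatory factors 9 rose, 4 fell and 5 did not pass, with a median of 0.05. Dok7, which organises the neuromuscular junction, rose by 0.39 and the acetylcholine receptor gene Chrna1 by 0.17, while the cell cycle inhibitor gene Cdkn1a fell by 0.20 and the desmin gene Des by 0.19. Genes of the receptor and the junction did not move together. Chrnb1 and Musk rose by 0.18 and 0.12, and Chrnd fell by 0.10 (edgeR adjusted p = 0.00435). Chrng, whose row is wider than its gene, and Rapsn did not pass. Of 18 tested MEF2 target genes 8 rose, 1 fell and 9 did not pass (median 0.09). Klf2 rose to 32.2 ± 0.747 CPM with lenvatinib, against 19.5 ± 0.927 CPM without it, and Jun to 119 ± 1.69 CPM with lenvatinib, against 87.1 ± 5.67 CPM without it (SD, n = 3 each). The muscle kinase gene Srpk3, a target of MEF2C in mouse, rose by 0.37 and the thin filament gene Lmod2 by 0.21. Nr4a1, the member that fell, was at 15.9 ± 1.53 CPM with lenvatinib and 18.8 ± 0.932 CPM in untreated libraries (-0.23 ± 0.07); it was chosen after its values were seen, and its adjusted p was above 0.05 in DESeq2 (0.056) and without 3 of the 6 libraries (lenvatinib 1 and 2, untreated 2).

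**Figure D4:**
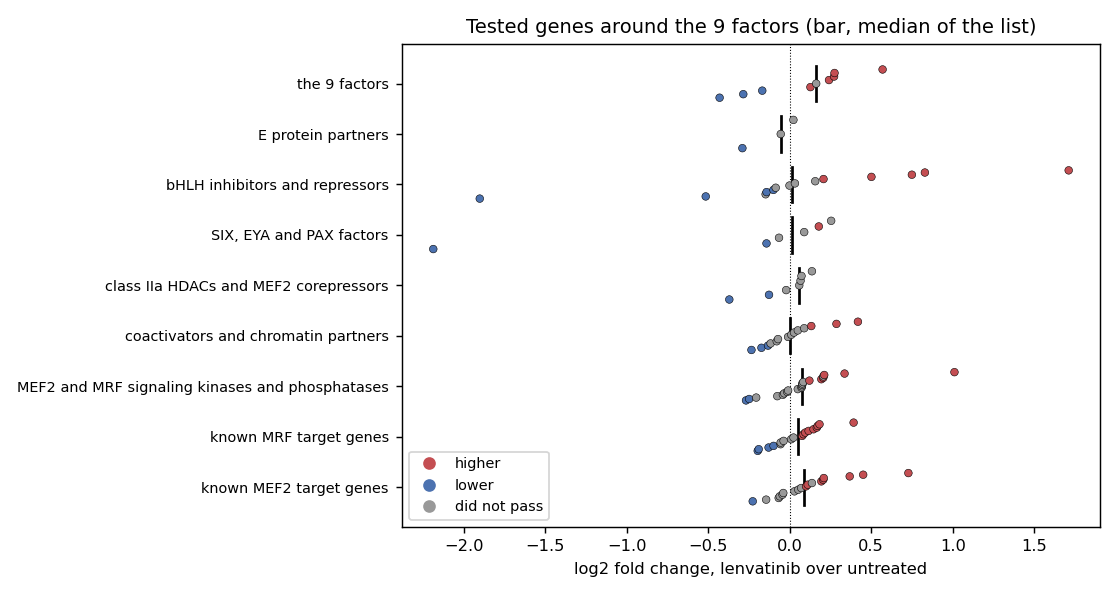
Log2 fold change, lenvatinib over untreated, of the tested genes in each list; a point is a gene, its color gives the edgeR call at an adjusted p under 0.05, and the bar is the list's median. List medians lie between -0.05 and 0.16, and in the MEF2 target list 8 genes are higher and 1 is lower.

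Markers of other states moved beside these results. Of all tested rows 28.2% were called, and of those of at least 10 CPM 33.9%. The marker lists are short, and their counts were not tested against these shares. Of 10 skeletal muscle markers 4 rose and 2 fell, and their summed level overlapped between the groups, at 16103 to 17032 CPM with lenvatinib and 16040.5 to 17211 CPM without it. That sum mixes opposite changes, since Myh3, its largest gene, rose by 0.10 and Des fell by 0.19. Replicates also varied for Ttn, at 1705 ± 254 CPM with lenvatinib and 1837 ± 416 CPM without it. Neb was at 1327 ± 158 CPM with lenvatinib and 1550 ± 196 CPM without it (SD, n = 3 each). Of 7 tested genes of proliferating cells 3 rose (Top2a, Cdk1 and Aurkb) and none fell, and the list summed to 232 to 244 CPM with lenvatinib, against 197 to 228 CPM without it. Mki67 was at 60.1 ± 4.65 CPM with lenvatinib and 59.7 ± 5.78 CPM in untreated libraries (SD, n = 3 each) and did not pass, and Cdk1 and Aurkb no longer passed without 2 and 1 of the libraries. Reserve and satellite cell markers summed to 356 to 365 CPM with lenvatinib and 367 to 384 CPM without it, with 2 of 7 higher (Sdc4 and Hey1) and 1 lower. The direction of that sum is set by the lower gene, the adhesion molecule gene Vcam1, at 59.8 ± 1.96 CPM with lenvatinib and 99.3 ± 0.915 CPM without it, while Sdc4 was at 221 ± 0.282 CPM with lenvatinib and 195 ± 5.05 CPM without it (SD, n = 3 each). Fibroblast markers summed to 919 to 1011 CPM with lenvatinib and 855 to 898 CPM without it (3 of 6 higher, 2 lower). Most of that sum was the collagen gene Col1a1, at 615 ± 45.4 CPM with lenvatinib and 483 ± 14.3 CPM without it, while Pdpn fell to 220.03 ± 8.71 CPM with lenvatinib, against 263 ± 3.91 CPM without it (SD, n = 3 each). Of 7 osteoblast markers only 4 had enough counts to be tested (3 of 4 lower). The list summed to 432 to 459 CPM with lenvatinib and 1562 to 1601 CPM without it. Nearly all of that sum was Spp1, at 410 ± 15.7 CPM with lenvatinib and 1544 ± 21.8 CPM without it (SD, n = 3 each), so the sum describes this gene. Endothelial, macrophage and adipocyte markers summed to 0.736 to 0.927 CPM with lenvatinib and 0.47 to 1.29 CPM without it, with Adgre1 and Plin1 at 0 counts in all 6 libraries. Calcr and Ibsp were also at 0 in all 6. Rps10, which encodes a ribosomal protein that cells need, had 0 to 8 counts in this table, so counts near 0 do not show that a transcript is absent. The part of these cell states in the results above was not tested.

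Library totals were 24585849, 24566768 and 32406563 counts with lenvatinib and 26597093, 25529288 and 28886472 counts in untreated libraries, so 3 counts correspond to 0.0927 to 0.123 CPM. Such a floor covers counting error only, since reads that carry no molecular identifiers can be copies of one molecule.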

How the data were processed

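Whole-number read counts per gene, as deposited by the authors and not normalized, were analysed for 3 lenvatinib and 3 untreated libraries; group and replicate number come from the sample titles. Per the labels' protocols reads were aligned with Hisat2 2.0.1, and the tools named per the submitters' processing notes are HTSeq 0.6.1 with build mm10. Strand setting and read filters: not given in the sources used here. Of 51863 identifiers shared with GENCODE M21, an annotation of mm10, only 1542 have the same start and end. The deposited positions are thus mostly not those of this mm10 annotation, although the notes name mm10, and they are printed as deposited. The deposited feature length (unit other) served for levels per kilobase; in 585 rows it exceeds the gene's span. The members and gene lists were chosen with earlier results of these data known.

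Computed here with R 4.3.3: CPM, fold changes and tests by edgeR 4.0.16 (glmQLFit with robust estimation, TMM, filterByExpr with minimum count 10 and minimum total 15), with the SE from the F statistic. Exact permutation tests over libraries were used for shares and for 8 ratios between members. Replicates differed by more than sampling noise (chi-square per degree of freedom 2.78 to 5.6). On simulated data the test kept its nominal rate at an unadjusted p of 0.05. At an adjusted p of 0.05 it made more false calls than nominal, so a call close to that threshold carries less weight. The simulation changed far fewer genes than were called in these data, so the size of that excess may not carry over. All 8 called members also pass 0.01. Named are all members, up to 4 called genes per list by smallest p, and the 5 genes nearest to Myog and to Mef2c. Tcf12, Tcf3, Hes1, Heyl, Pax7, Mef2b, Nr4a1, Mdfi, Twist2, Bhlhe40, Bhlhe41, Col1a1 and Mki67 were named after their values were seen. So were Ppp3cb, Ppp3r1, Nfatc1, Nfatc2, Nfatc3, Nfatc4, Rcan1, Map2k3, Mapk11, Mapk12, Chrnb1, Chrnd, Chrng, Musk, Rapsn, Myh3, Ttn and Neb. Alternatives were other scalings, filters and tools (DESeq2 1.42.0, limma 3.58.1), a replicate block and leaving out each library. The list gene Cdh15 was not analysed here, and some other list genes are not reported here and were left out of the list counts.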

Additional observations from a re-analysis of the deposited data

How the results depend on the processing

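The number of members called was 8 under all 16 alternatives, which were other scalings, filters and tools, a threshold of 0.01 and leaving out each library. Each of these 8 kept its direction and its call in 15 refits; the largest adjusted p was 0.00868, for Mef2a without the second untreated library. Myf6 passed in none of its 14 refits (the filter of 1 CPM removes it), with a log2 fold change of 0.0338 to 0.346. With the replicate number as a block the count was again 8 and Mef2c changed by -0.43; same-numbered libraries did not deviate together (correlations of -0.0329 to 0.0406), so the numbers were not treated as pairs. Of all rows, DESeq2 called 3319 and edgeR 4228. Called genes of the 8 surrounding lists numbered 51, and 46 to 52 under 10 alternatives. Of 470 refitted values of 47 of the named called genes 459 kept their call, 11 lost it and none turned. The Mef2c share of MEF2 counts differed by -4.06 points, by -5.91 points when counts were not divided by length, which by construction gives long rows more weight, and by -4.33 to -3.85 points without single libraries. The Myog share difference ranged from -0.0933 to 0.103 points without single libraries, so it has no stable sign. Levels per kilobase with GENCODE lengths were added after seeing the data. Depth limits Myf6, at 20 to 31 counts per library.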

Other observations

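Enzymes that act on the factors formed a further list. Of 21 tested kinases, phosphatases and NFAT factors 6 rose, 2 fell and 13 did not pass, with a median log2 fold change of 0.07. Of all tested rows 28.2% were called, and of those of at least 10 CPM 33.9%. Mapk14, the p38 alpha kinase that phosphorylates MEF2 proteins, rose to 76.8 ± 3.25 CPM with lenvatinib, against 60.8 ± 0.991 CPM in untreated libraries (0.34 ± 0.04, edgeR adjusted p = 4.32e-09). Map2k6, a kinase that activates p38, rose to 2.58 ± 0.224 CPM with lenvatinib, against 1.28 ± 0.24 CPM without it, on 27 to 77 counts per library. Map2k3, which also activates p38, was at 102 ± 0.727 CPM with lenvatinib and 95.9 ± 2.02 CPM without it (SD, n = 3 each). It did not pass (edgeR adjusted p = 0.0607), nor did the p38 genes Mapk11 and Mapk12. Camk2a, a calcium-dependent kinase, fell by 0.27 and Ppp3ca, a catalytic subunit of calcineurin, by 0.25 on the log2 scale. Ppp3cb, another catalytic subunit, was at 142 ± 4.96 CPM with lenvatinib and 142 ± 3.27 CPM without it (SD, n = 3 each). It did not pass (edgeR adjusted p = 0.868). In the same list Ppp3r1, Nfatc1, Nfatc3 and Rcan1 were called higher, by 0.12 to 0.21, and Nfatc2 and Nfatc4 did not pass.

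Of 14 tested coactivators and chromatin partners 3 rose, 3 fell and 8 did not pass (with a median near 0), where 28.2% of all tested rows were called. Smarcd3, the BAF60C subunit that works with MyoD, rose to 102 ± 0.571 CPM with lenvatinib, against 83.7 ± 3.13 CPM in untreated libraries (0.29 ± 0.04), and the cofactor gene Vgll2 to 25.1 ± 0.568 CPM with lenvatinib, against 18.7 ± 1.61 CPM without it (0.42 ± 0.07). The acetyltransferase gene Crebbp fell by 0.23 and the methyltransferase gene Carm1 by 0.13 on the log2 scale.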
